A study of Mus musculus with 12 samples.

Results

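Cytosolic ribosomal proteins are the protein subunits of the ribosomes that work outside the mitochondria. They were taken as every gene with at least 1 probe set annotated to that gene alone and a symbol of Rpl or Rps plus a number and at most 1 further letter, or the symbols Rplp0, Rplp1, Rplp2 and Rpsa. Of 18194 genes with a probe set of their own, 46 met this rule, 24 of the large subunit (Rpl) and 22 of the small (Rps). They had 100 such probe sets, and each gene was represented by the one with the highest mean over the 12 arrays. Another 110 probe sets named such a symbol together with other genes, and 28 symbols, among them Rplp1, Rpl3 and Rpl10, were found only on those and are not among the 46. Ribosomal protein genes have many processed pseudogenes, so even a probe set annotated to 1 gene may bind transcripts of others.

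Ribosomal proteins assemble with ribosomal RNA in the nucleolus into a small subunit, which decodes the messenger RNA, and a large subunit, which joins the amino acids. The acinar cells of the pancreas make digestive enzymes in large amounts and are rich in ribosomes. Ribosomal protein mRNAs typically begin with a C followed by a run of pyrimidines, the 5′ terminal oligopyrimidine (TOP) tract, through which the mTOR kinase controls their translation. The arrays measured mRNA, not translation or protein.

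The arrays, 3 for each of 4 groups and each called a biological replicate, measured pancreas RNA from mice labelled as 8 weeks old with no genetic change named. The groups were C57BL6/NHsd mice (from Harlan, called NHsd) with chronic pancreatitis induced by cerulein, NHsd mice injected with saline, C57BL6/J mice (from Jackson, called J) with cerulein-induced chronic pancreatitis, and J mice injected with saline. Cerulein is an analogue of the hormone cholecystokinin, which makes acinar cells release enzymes. Saline mice are labelled female, the cerulein mice carry no sex label, and the dose, schedule and time of sampling are not given in the sources used here.

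The sequence around the start of transcription was read from RefSeq (GRCm38.p6) for 40 of the 46 genes, on 1 window per annotated start of 250 bases before to 50 after it. A TOP-like start, a C followed by at least 4 C or T within 5 bases of an annotated start, was found in 19 of the 40 (47.5%), against 21.2% of the 27025 genes of the table and 23.6% of the 6941 genes tested below that it held. At the annotated start base itself it was found in 20% of the 40, against 3.01% of the table and 3.04% of the genes tested. Of the 36 members tested that the table held, 50% had it within 5 bases and 19.4% at the start base. The letters CCGGAAGT, the core bound by ETS factors, were on either strand of a window in 25% of the 40 and 4.31% of the table. Among genes tested they were in 27.8% of the 36 members and 9.8% of all. The letters AAGATGGC, which fit YY1, were in 7.5% of the 40 and 3.19% of the table. Among genes tested they were in 5.56% of the 36 members and 5.68% of all. A match is a description of the letters and not a measured start or binding site.

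The following stretches of 30 bases, 5′ to 3′, carry the annotated start as base 11 and show members described below. Capitals mark the pyrimidine tract, and the last 3 sequences have none within 5 bases of the start.
Rpl35: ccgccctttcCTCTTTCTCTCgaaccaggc
Rpl27a: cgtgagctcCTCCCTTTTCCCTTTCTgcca
Rps6: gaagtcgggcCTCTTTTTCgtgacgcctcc
Rpl12: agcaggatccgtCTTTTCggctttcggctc
Rplp2: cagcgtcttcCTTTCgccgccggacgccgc
Rpl22: cctgggaaaagcaatagctggccgatcgtt
Rpl37: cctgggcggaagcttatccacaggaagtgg
Rplp0: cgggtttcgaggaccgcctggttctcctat
The first stretch lies on the minus strand of chr2:39005112-39005141 and the second on the plus strand of chr7:109519185-109519214. The Rps6 stretch is the minus strand of chr4:86857348-86857377, and those of Rpl12 and Rplp2 are the plus strands of chr2:32961702-32961731 and chr7:141447641-141447670. Of those without a tract, Rpl22 shows 1 of its 2 annotated starts, on the plus strand of chr4:152325716-152325745, Rpl37 the plus strand of chr15:5116603-5116632 and Rplp0 the plus strand of chr5:115559457-115559486. Among the members tested below, the 18 with a TOP-like start had a median change after cerulein of 0.19 log2 and the 18 without one of 0.20 log2, in the deposited values. Members that rose (Rpl35, Rplp2) and members that fell (Rpl27a, Rps6) both stood among those with a tract, and the same held for those without (Rpl22 rose, Rpl37 fell).

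The deposited values are log2 signals between a floor of 2.39 and 16.37. A gene was tested when its probe set exceeded log2 4 on 3 or more of the 12 arrays. This left 8505 genes and 42 of the 46 members, 22 of the large and 20 of the small subunit. Rpl3l, Rpl39l, Rps16 and Rps27 did not pass, with no array above log2 3.45. Rpl3l and Rpl39l are paralogs that in mice belong mainly to muscle and testis. For Rps16 and Rps27 a probe set shared with pseudogenes or related genes gave a mean of log2 14.88 and 12.87, so the low values are those of their own probe sets. Of the 42 members, 34 had mean signals at or above log2 10 and 8 below it.

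The pancreas label was borne out in all groups by acinar markers, whose 10 measured genes summed to log2 17.32 to 17.76 on the cerulein arrays and 17.93 to 17.98 on the saline arrays, and 6 of the 10 fell and 2 rose. Other cell types moved too. All 11 macrophage markers rose (summed log2 12.75 to 13.48 on cerulein arrays, 9.28 to 10.09 on saline arrays), as did all 8 fibroblast and stellate markers (12.83 to 14.33, against 10.97 to 11.64 on saline arrays). All 5 proliferation genes rose (10.11 to 11.09, against 7.54 to 8.04 on saline arrays), as did 3 of 4 duct markers (10.02 to 10.66, against 8.13 to 8.55 on saline arrays) and all 4 islet markers (13.65 to 14.34, against 13.20 to 13.57 on saline arrays). Of 7 lymphocyte genes with a probe set, only 2 passed the filter on low values. Both of these rose, although their sums overlapped (8.32 to 11.08 on cerulein arrays, 6.03 to 9.90 on saline arrays). These counts are from the deposited values, in which 59.4% of all genes tested were called higher and 10.1% lower. With equal array medians, a scaling described below, 8 acinar markers fell and 0 rose, 11 macrophage, 7 fibroblast, 5 proliferation, 3 duct and 2 islet markers rose, and 0 lymphocyte genes did. Control probe sets differed as well, with hybridization spike-ins at a mean of log2 8.76 ± 0.17 on cerulein arrays and 10.85 ± 0.43 on saline arrays, and 18S ribosomal RNA probe sets at 9.31 ± 0.31 on cerulein arrays and 11.40 ± 0.28 on saline arrays (SD, n = 6 each). A two-sided exact permutation test gave p = 0.00216 for each of these, the smallest possible (adjusted p = 0.00289 over 12 measures). The Gapdh 3′ minus 5′ gap averaged 0.83 ± 0.13 log2 on cerulein arrays and 1.22 ± 0.20 on saline arrays (SD, n = 6 each; exact permutation p = 0.00649, adjusted p = 0.00779). That of beta-actin averaged 1.67 ± 0.12 log2 on cerulein arrays and 1.97 ± 0.26 on saline arrays (SD, n = 6 each, exact permutation p = 0.0455, adjusted p = 0.0496). The part of these in the results below was not tested, no processing batch is labelled, and treatment and array handling cannot be told apart. In whole tissue, fewer cells of a type and less RNA per cell cannot be told apart either.

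The first comparison asked how ribosomal protein mRNAs differ in the pancreas with chronic pancreatitis. In the deposited signals the family's median was only slightly higher after cerulein while that of all genes was clearly higher, so that relative to the median gene the family was lower. The median gene is far dimmer than most members. Beside other genes above log2 12, the members above log2 12 were higher, as given below. The median of the 42 members on an array was 13.05, 12.69 and 12.97 in NHsd cerulein pancreas, against 12.91, 12.71 and 12.87 in NHsd saline pancreas. It was 13.26, 12.99 and 12.99 in J cerulein pancreas, against 12.90, 12.96 and 12.90 in J saline pancreas. The groups overlapped in NHsd, and in J the cerulein arrays lay just above the saline arrays. J cerulein replicate 1 had the highest of the 12 medians and NHsd cerulein replicate 2 the lowest. The median of the 8505 genes, in contrast, was 5.98 to 6.23 on the cerulein arrays and 5.46 to 5.66 on the saline arrays.

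The difference between these medians is unaltered by any shift of a whole array. The members' median exceeded that of all genes by 6.90, 6.72 and 6.82 log2 in NHsd cerulein pancreas, against 7.32, 7.25 and 7.40 in NHsd saline pancreas. In J cerulein pancreas it did so by 7.11, 6.75 and 6.91 log2, against 7.24, 7.39 and 7.40 in J saline pancreas. All 6 cerulein arrays lay below all 6 saline arrays, with J cerulein replicate 1 the nearest to them. Most members are among the brightest genes on the arrays. The 33 members with means above log2 12 had a median change of 0.19 log2, and the 75 other tested genes above log2 12 one of -0.13. Among genes of this level the members thus lay higher, the opposite of their place beside the median gene. This difference was not tested.

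**Figure D1:**
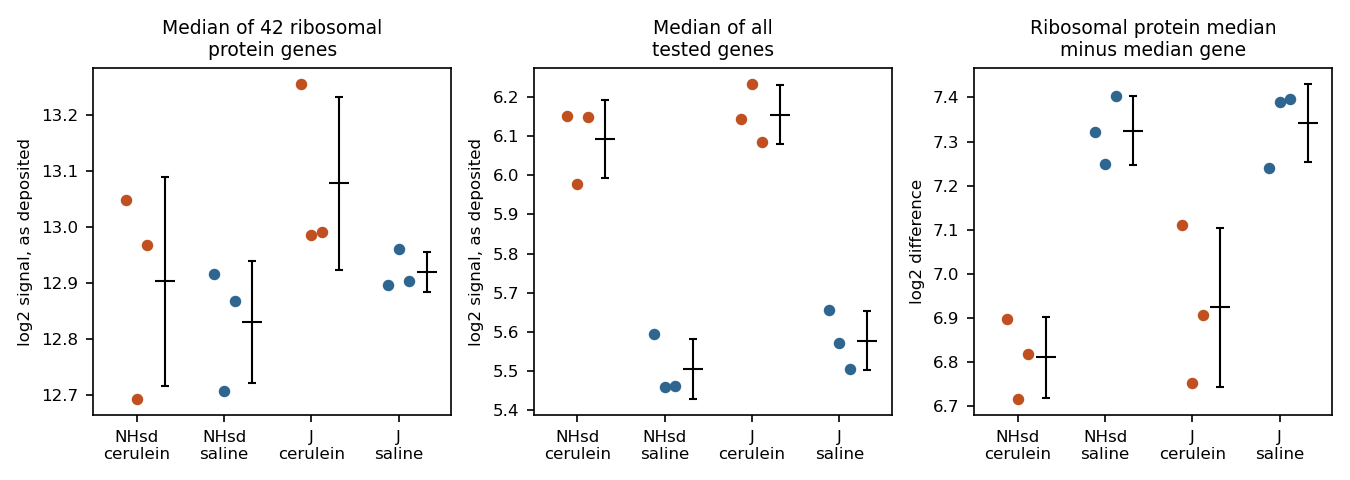
Median log2 signal per array of the 42 tested ribosomal protein genes (left), of the 8505 tested genes (middle) and the difference of both medians (right), with 1 point per array, 4 groups along the horizontal axis and mean ± SD of 3 arrays beside each. The members' medians overlap between cerulein and saline in NHsd and lie close in J, the gene medians are higher on all cerulein arrays, and the differences are lower on all cerulein arrays (6.72 to 7.11) than on the saline arrays (7.24 to 7.40).

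Gene by gene, 20 of the 42 members were higher after cerulein, 4 were lower and 18 did not pass the test (limma, adjusted p below 0.05 over all 8505 genes, mean of both substrains). Over all genes tested 59.4% were called higher and 10.1% lower. One of the 20, Rpl12, passed the filter on low values through its cerulein arrays alone and so had to differ. The members' median change was 0.20 log2, within a range of -1.42 to 1.63 leaving out Rpl12, and the median gene changed by 0.49. Of the 42 members 34 lay below that gene. When the arrays were set to a common median of the genes tested, here called equal medians, 2 members were higher, 29 lower and 11 not called, beside 26.6% and 36.1% of all genes. Rpl12 is among these 2, with the same limit. The members' median was then -0.39 and that of all genes -0.10. This scaling lowers the change of each gene by the same 0.58 log2, which by its construction took the number of members above 0 to 5, against 33 in the deposited values, and kept 34 members below the median gene. Quantile normalization, which also gives the arrays equal medians, left the members' median at 0.11 log2, with 16 higher and 7 lower. The shares called and the median change over all genes were not counted under it. These numbers therefore have no share to be read against, and the members' place beside the median gene under it is not known. Leaving out NHsd cerulein replicate 2 raised the number called higher to 27, and leaving out 1 of the other arrays gave 16 to 21. Shares over all genes were not counted with an array left out, here or below.

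Split by subunit, of the 22 large subunit members 11 were higher and 2 lower (1 and 14 with equal medians), with a median change of 0.23 log2 (-0.35 with equal medians). Rpl12, kept for its cerulein values, is among the 11 and is the 1 higher with equal medians. Of the 20 small subunit members 9 were higher and 2 lower (1 and 15), with a median of 0.16 log2 (-0.42). The difference between the subunits was not tested. Most changes were small: the 34 members at or above log2 10 changed by -0.32 to 0.64 log2, with 16 higher and 1 lower (0 and 25 with equal medians).

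**Figure D2:**
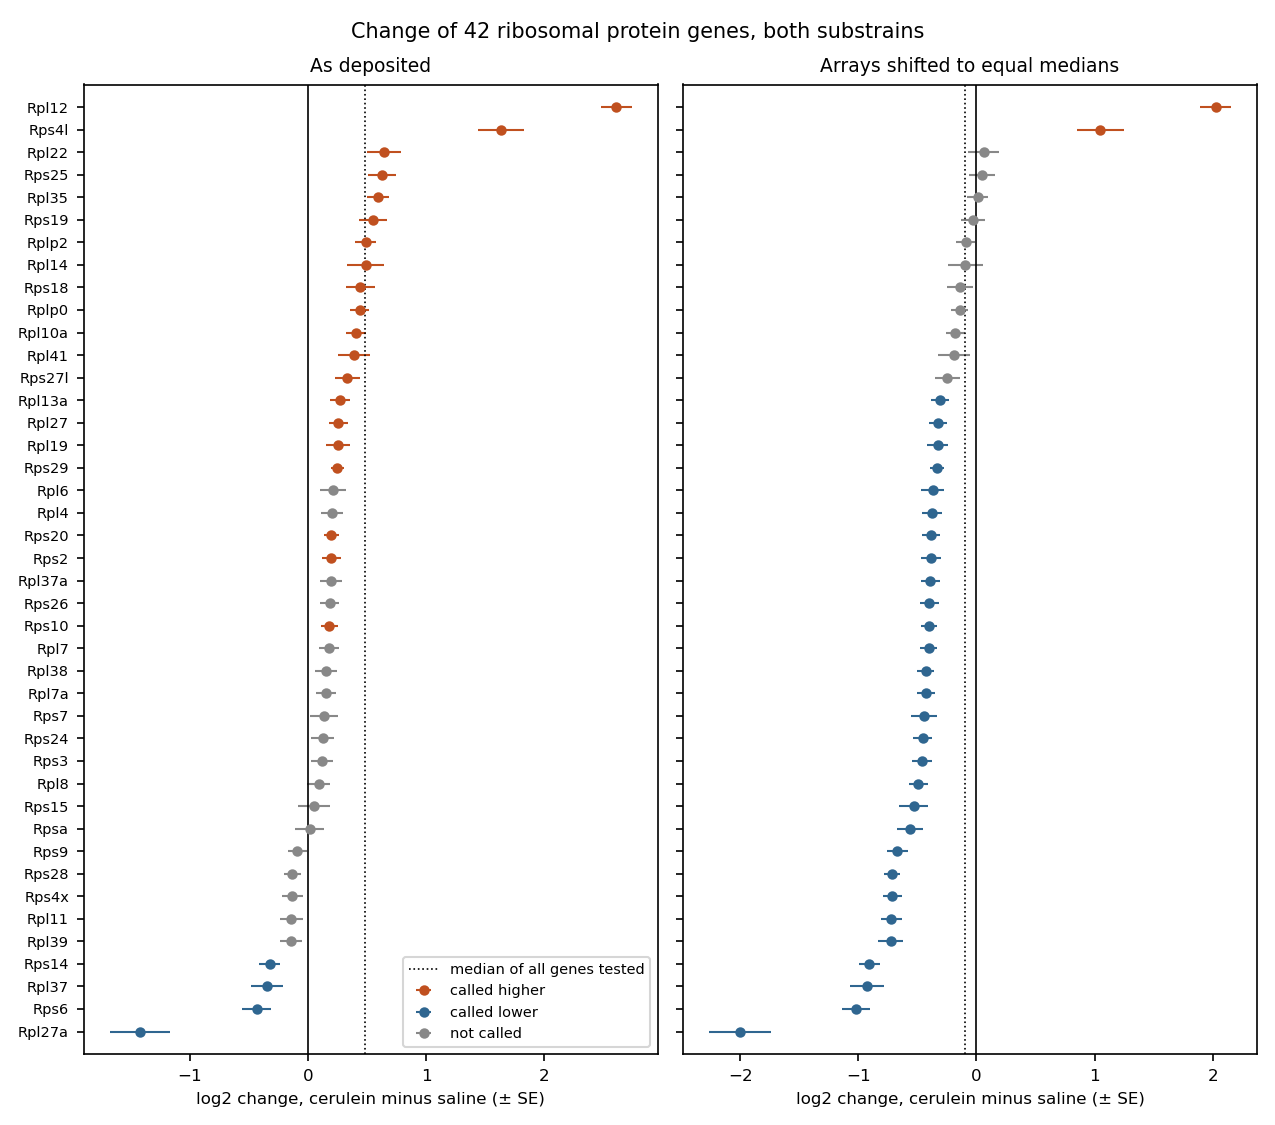
Log2 change after cerulein (horizontal axis, cerulein minus saline, mean of both substrains, bars are SE) of each of the 42 tested ribosomal protein genes, one per row and in the same order in both panels, from the deposited values (left) and with equal array medians (right). Orange points were called higher, blue lower and grey not called; the dotted line is the median of the 8505 genes, at 0.49 on the left and -0.10 on the right, and most members lie left of it in both panels. The point of Rpl12 is no exact size, since its saline arrays all lay under log2 4.

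Members that rose most among those with signals at or above log2 10 were Rpl22 and Rpl35. Rpl22, a large subunit protein that T cell development requires in mice, was at log2 12.31, 11.94 and 12.53 in NHsd cerulein pancreas, against 11.80, 11.45 and 11.70 in NHsd saline pancreas, and at 13.00, 12.33 and 12.19 in J cerulein pancreas, against 11.91, 11.93 and 11.67 in J saline pancreas. Cerulein arrays lay above saline arrays in both substrains, although the highest saline value (11.93) came close to the lowest cerulein value (11.94). The change was 0.64 log2 (SE 0.15, adjusted p = 0.00175), and 0.06 log2 (SE 0.13, adjusted p = 0.698) with equal medians, where it was not called. A second Rpl22 probe set gave 0.63 log2 (SE 0.12), whereas one more, with a mean of log2 7.45, gave -0.15 (SE 0.16). Rpl35, which lies beside the exit of the nascent peptide, was at log2 14.13, 13.92 and 14.12 in NHsd cerulein pancreas, against 13.71, 13.49 and 13.52 in NHsd saline pancreas, and at 14.72, 14.37 and 14.14 in J cerulein pancreas, against 13.69, 13.67 and 13.75 in J saline pancreas. All 6 cerulein arrays lay above all 6 saline arrays. The change was 0.59 log2 (SE 0.09, adjusted p = 0.000111), but 0.01 log2 (SE 0.09, adjusted p = 0.926) with equal medians, and its 5 kept probe sets changed by 0.16 to 0.67 log2, 4 of them called higher.

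Rps19, the small subunit gene most often mutated in human Diamond-Blackfan anaemia, was at log2 11.88, 11.47 and 11.80 in NHsd cerulein pancreas, against 11.35, 11.23 and 11.14 in NHsd saline pancreas, and at 12.41, 12.02 and 11.71 in J cerulein pancreas, against 11.39, 11.40 and 11.46 in J saline pancreas. The groups did not overlap, by a narrow margin in NHsd. Its change was 0.55 log2 (SE 0.12, adjusted p = 0.00104), and -0.03 log2 (SE 0.10, adjusted p = 0.821) with equal medians. Rplp0 and Rplp2 encode proteins of the ribosomal stalk, which recruits the elongation factors. Rplp2 was at log2 14.02, 13.63 and 14.03 in NHsd cerulein pancreas, against 13.48, 13.46 and 13.52 in NHsd saline pancreas, and at 14.28, 14.05 and 13.88 in J cerulein pancreas, against 13.43, 13.56 and 13.51 in J saline pancreas. Again the groups did not overlap in either substrain, and the change was 0.49 log2 (SE 0.09, adjusted p = 0.000334). Rplp0 was at log2 13.44, 13.05 and 13.42 in NHsd cerulein pancreas, against 13.06, 12.92 and 12.92 in NHsd saline pancreas, and at 13.65, 13.47 and 13.49 in J cerulein pancreas, against 12.97, 13.06 and 12.96 in J saline pancreas. In J the groups did not overlap, and in NHsd cerulein replicate 2 was level with the highest saline array (13.05 and 13.06). Its change was 0.44 log2 (SE 0.08, adjusted p = 0.000366). With equal medians neither stalk gene was called, at -0.09 log2 (adjusted p = 0.341) for Rplp2 and -0.14 log2 (adjusted p = 0.102) for Rplp0. The third stalk gene, Rplp1, had only a probe set shared with a pseudogene, with a change of 0.08 log2 (SE 0.08, adjusted p = 0.354), by a fit over single probe sets that was added after the data were seen.

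Rpsa, a small subunit protein also known as the laminin receptor, was at log2 12.23, 11.58 and 12.08 in NHsd cerulein pancreas, against 12.01, 11.94 and 12.04 in NHsd saline pancreas, and at 12.50, 11.99 and 11.97 in J cerulein pancreas, against 12.09, 12.10 and 12.05 in J saline pancreas. The groups overlapped in both substrains. Its change was 0.02 log2 (SE 0.12, adjusted p = 0.91), and with equal medians -0.56 log2 (SE 0.11, adjusted p = 0.000543). Rps27l, a paralog of Rps27 that responds to p53 in human cells, was at log2 12.77, 12.43 and 12.60 in NHsd cerulein pancreas, against 12.46, 12.08 and 12.44 in NHsd saline pancreas, and at 13.12, 12.57 and 12.76 in J cerulein pancreas, against 12.36, 12.46 and 12.44 in J saline pancreas. Only in J did the groups lie apart, with 12.57 as the lowest cerulein and 12.46 as the highest saline value. Its change was 0.33 log2 (SE 0.11, adjusted p = 0.0139), its 3 probe sets were all called higher at 0.28 to 0.38 log2, and with equal medians it was at -0.25 log2 (SE 0.11, adjusted p = 0.0563). Rpl41, among the smallest ribosomal proteins, was at log2 14.27, 14.19 and 14.48 in NHsd cerulein pancreas, against 14.25, 14.12 and 14.12 in NHsd saline pancreas, and at 15.36, 14.50 and 14.45 in J cerulein pancreas, against 14.04, 14.11 and 14.26 in J saline pancreas. J cerulein replicate 1 stood highest of all. The change of Rpl41 was 0.39 log2 (SE 0.14, adjusted p = 0.0229) over both substrains, 0.63 log2 (SE 0.19, adjusted p = 0.015) in J and 0.15 log2 (SE 0.19, adjusted p = 0.549) in NHsd. Its 4 probe sets disagreed, from -0.01 to 0.83 log2. The call over both substrains ended without NHsd cerulein replicate 3 (adjusted p = 0.0544), without J saline replicate 1 (adjusted p = 0.0522) and when dim genes were not filtered out (adjusted p = 0.0847).

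On the lower side, Rps14 was the 1 member at or above log2 10 that fell in the deposited values. Rps14, whose loss of 1 copy is tied to the human 5q- syndrome, was at log2 12.83, 12.68 and 12.91 in NHsd cerulein pancreas, against 13.29, 13.05 and 13.20 in NHsd saline pancreas, and at 13.26, 12.84 and 12.99 in J cerulein pancreas, against 13.30, 13.20 and 13.42 in J saline pancreas. Cerulein lay below saline on all NHsd arrays, and in J replicate 1 overlapped. The change was -0.32 log2 (SE 0.09, adjusted p = 0.00503), and -0.90 log2 (SE 0.09, adjusted p = 1.95e-06) with equal medians. Its second probe set gave -0.10 log2, and the mean of both was not called (adjusted p = 0.0902). Rps4x, an X-linked small subunit gene, was at log2 13.66, 13.17 and 13.73 in NHsd cerulein pancreas, against 13.65, 13.56 and 13.62 in NHsd saline pancreas, and at 13.50, 13.63 and 13.63 in J cerulein pancreas, against 13.71, 13.81 and 13.77 in J saline pancreas. The J groups lay apart and the NHsd groups overlapped, where cerulein replicate 2 was low and replicates 1 and 3 lay above all NHsd saline arrays. The NHsd change was -0.09 log2 (SE 0.13, adjusted p = 0.566), and 0.083 without NHsd cerulein replicate 2, opposite in sign to J. Over both substrains the change was -0.13 log2 (SE 0.09, adjusted p = 0.208), and -0.71 log2 (SE 0.08, adjusted p = 5.38e-06) with equal medians.

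Rpl11, which with 5S ribosomal RNA can bind the p53 regulator Mdm2, was at log2 13.08, 12.61 and 12.94 in NHsd cerulein pancreas, against 13.17, 13.05 and 13.09 in NHsd saline pancreas, and at 13.35, 12.93 and 12.99 in J cerulein pancreas, against 13.13, 13.12 and 13.17 in J saline pancreas. The groups overlapped, with the cerulein values more spread than the saline values. Its change was -0.14 log2 (SE 0.10, adjusted p = 0.209), and -0.72 log2 (SE 0.09, adjusted p = 1.46e-05) with equal medians. Without J cerulein replicate 1 it was called lower in the deposited values too, at -0.21 log2 (adjusted p = 0.0427). Rps28 was at log2 14.17, 13.86 and 14.18 in NHsd cerulein pancreas, against 14.28, 14.11 and 14.20 in NHsd saline pancreas, and at 13.95, 14.02 and 14.14 in J cerulein pancreas, against 14.17, 14.14 and 14.21 in J saline pancreas. The cerulein and saline arrays overlapped in both substrains. Its change was -0.13 log2 (SE 0.07, adjusted p = 0.122), and -0.71 log2 (SE 0.07, adjusted p = 1.62e-06) with equal medians.

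**Figure D3:**
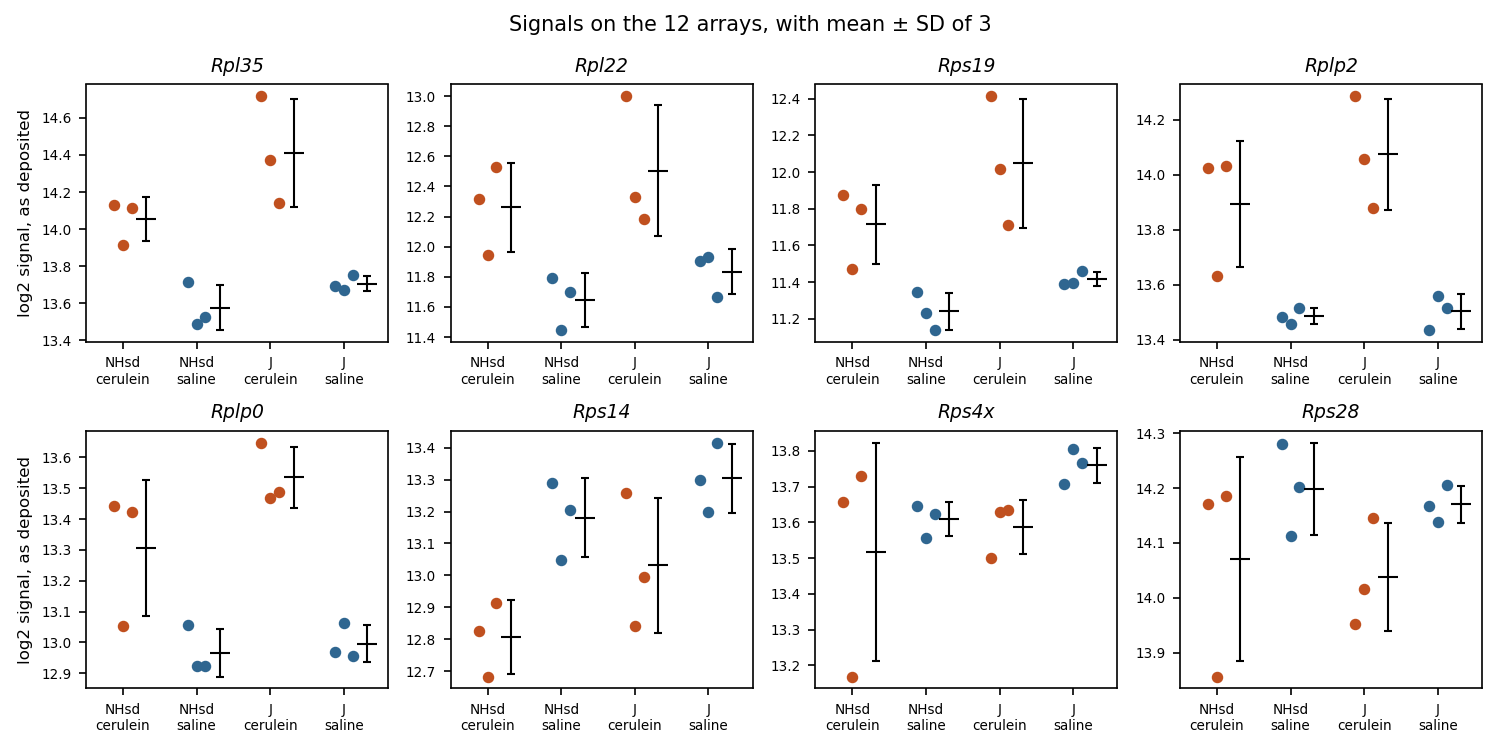
Deposited log2 signals of 8 ribosomal protein genes on the 12 arrays, 1 panel per gene with its own vertical axis, 1 point per array, and mean ± SD of 3 arrays beside each of the 4 groups. The upper row and Rplp0 are higher after cerulein with separation of the treatments that is complete for Rpl35, Rpl22, Rps19 and Rplp2, while Rps14 is lower Rps4x overlaps in NHsd and Rps28 in both substrains.

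Which members moved apart from the family was asked with the 42 members' median set equal on all arrays, a difference that no common shift of an array can change. Relative to the members' median on each array, 14 members were higher, 8 lower and 20 not called, beside 50.5% and 12.7% of all genes in the same fit. The members' median change in this fit was 0.08 log2, with 30 of the 42 above 0. The zero point thus lay below the change of the median member, and the numbers above and below depend on it. Above the family lay Rpl22 by 0.53 (SE 0.10), Rpl35 by 0.48 (SE 0.07), Rps19 by 0.44 (SE 0.09), Rplp2 by 0.37 (SE 0.06) and Rplp0 by 0.32 (SE 0.06). Below it lay Rps14 by -0.44 (SE 0.07), Rpl11 by -0.26 (SE 0.06), Rps4x by -0.25 (SE 0.08), Rps28 by -0.25 (SE 0.07) and Rps9 by -0.20 (SE 0.08). These 10 members had signals at or above log2 10. Of the others called above, Rps18, Rpl10a, Rpl41, Rps27l and Rpl13a were by 0.16 to 0.33 log2 and the dim Rps4l, Rps25 and Rpl14 by 0.37 to 1.52, and Rpl12 was the last. Rpl12 was kept for its cerulein values and so had to differ. The dim Rpl27a, Rps6 and Rpl37 made up the rest of those below, at -1.53 to -0.46 log2. The number above was 4 and that below 3 where plain probe sets alone were used, and the number below was 5 without the intensity trend. With plain probe sets Rpl12, Rps9 and Rps24 stand by dim ones kept for their cerulein values. That number above is therefore not read as a result. Shares over all genes were not counted in these fits.

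The widest changes belonged to the 8 members under log2 10. Of these 4 were higher, Rpl12 among them, and 3 lower, and the 7 besides Rpl12 ranged from -1.42 to 1.63 log2. Rpl12, at the base of the stalk, was at log2 6.28, 6.39 and 6.47 in NHsd cerulein pancreas, against 3.53, 3.31 and 3.87 in NHsd saline pancreas, and at 6.47, 6.37 and 5.92 in J cerulein pancreas, against 3.90, 3.90 and 3.75 in J saline pancreas by its own probe set. The saline arrays all lay under log2 4 and the cerulein arrays all above 5.9. Counted against log2 4, the rise was at least 5.21-fold in NHsd mice and at least 4.76-fold in J mice, with no test read from a probe set that was kept for its cerulein values. Its brightest shared probe set, annotated also to a pseudogene, had a mean of log2 12.74 and changed by 0.13 (SE 0.11, adjusted p = 0.312). Rps4l, a paralog of Rps4x, was at log2 5.74, 6.13 and 6.60 in NHsd cerulein pancreas, against 4.74, 5.19 and 4.54 in NHsd saline pancreas, and at 7.45, 6.88 and 6.79 in J cerulein pancreas, against 5.22, 4.68 and 5.45 in J saline pancreas. No array of a cerulein group was as low as the highest saline array (5.45). The change was 1.63 log2 (SE 0.19, adjusted p = 1.25e-05), and 1.05 log2 (SE 0.20, adjusted p = 0.000393) with equal medians, and Rps4l had no shared probe set to set beside it.

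Rpl27a, a large subunit protein, was at log2 5.85, 7.16 and 6.47 in NHsd cerulein pancreas, against 8.24, 8.12 and 7.81 in NHsd saline pancreas, and at 7.32, 6.27 and 6.52 in J cerulein pancreas, against 8.19, 7.32 and 8.42 in J saline pancreas. All cerulein arrays lay at or under 7.32, and the lowest saline array, J saline replicate 2, was level with the highest of them to 2 decimals. The change was -1.42 log2 (SE 0.26, adjusted p = 0.000345), and it was also called lower with equal medians. Its shared probe set, which names 4 further genes and had a mean of log2 13.56, changed by 0.20 (SE 0.07, adjusted p = 0.0253), the opposite way. Rps25, needed for initiation at some internal ribosome entry sites, was at log2 7.19, 7.04 and 6.99 in NHsd cerulein pancreas, against 6.34, 6.28 and 6.03 in NHsd saline pancreas, and at 7.30, 6.91 and 6.84 in J cerulein pancreas, against 6.80, 6.66 and 6.39 in J saline pancreas. Cerulein exceeded saline on every array, by a narrow margin in J. The change was 0.63 log2 (SE 0.12, adjusted p = 0.000475), and 0.05 log2 (SE 0.11, adjusted p = 0.726) with equal medians, while its shared probe set changed by -0.09 (SE 0.10, adjusted p = 0.439).

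Rps6, the small subunit protein that S6 kinase phosphorylates downstream of mTOR, was at log2 7.88, 7.60 and 7.73 in NHsd cerulein pancreas, against 8.37, 8.22 and 8.01 in NHsd saline pancreas, and at 8.44, 7.82 and 7.85 in J cerulein pancreas, against 8.51, 8.48 and 8.34 in J saline pancreas. In NHsd the groups lay apart, and in J replicate 1 overlapped saline. The change was -0.43 log2 (SE 0.13, adjusted p = 0.00814), and -1.01 log2 (SE 0.12, adjusted p = 8.17e-06) with equal medians. The 8 probe sets shared with a pseudogene changed by -0.55 to 0.16 log2, with 2 called lower and 0 higher. Rpl37 was at log2 9.13, 9.47 and 9.13 in NHsd cerulein pancreas, against 9.90, 9.48 and 9.72 in NHsd saline pancreas, and at 9.97, 9.51 and 9.40 in J cerulein pancreas, against 9.71, 9.71 and 10.18 in J saline pancreas. The NHsd cerulein arrays lay just below the NHsd saline arrays, and the J groups overlapped. The change was -0.35 log2 (SE 0.14, adjusted p = 0.0364), and -0.93 log2 (SE 0.14, adjusted p = 9.17e-05) with equal medians. In the deposited values this call ended when any 1 of 7 arrays was left out (highest adjusted p = 0.0969), and its brightest shared probe set gave -0.13 log2 (SE 0.09, adjusted p = 0.195).

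Rpl14 was at log2 5.43, 5.16 and 5.23 in NHsd cerulein pancreas, against 5.24, 5.28 and 4.85 in NHsd saline pancreas, and at 6.37, 5.65 and 5.44 in J cerulein pancreas, against 5.07, 4.86 and 5.06 in J saline pancreas by its own probe set. J cerulein replicate 1 stood alone at 6.37. The change was 0.49 log2 (SE 0.16, adjusted p = 0.0136), with 0.83 log2 (SE 0.22, adjusted p = 0.00704) in J and 0.15 log2 (SE 0.22, adjusted p = 0.585) in NHsd, and its 5 shared probe sets changed by 0.23 to 0.46 log2, 4 of them called higher. Rpl39, at the exit tunnel of the large subunit, was at log2 5.13, 5.15 and 5.12 in NHsd cerulein pancreas, against 5.40, 5.20 and 5.16 in NHsd saline pancreas, and at 5.16, 4.96 and 5.16 in J cerulein pancreas, against 5.16, 5.33 and 5.30 in J saline pancreas. The values barely moved, and the change was -0.14 log2 (SE 0.09, adjusted p = 0.185). With equal medians it was -0.73 log2 (SE 0.11, adjusted p = 6.46e-05), while its shared probe set, with a mean of log2 14.38, rose by 0.20 in the deposited values (SE 0.06, adjusted p = 0.0108). A shared probe set existed for 7 of these 8 members, and the brightest one of each had a mean above log2 10 and a change of -0.15 to 0.25 log2. Whether the own or the shared probe set describes the gene was not tested.

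**Figure D4:**
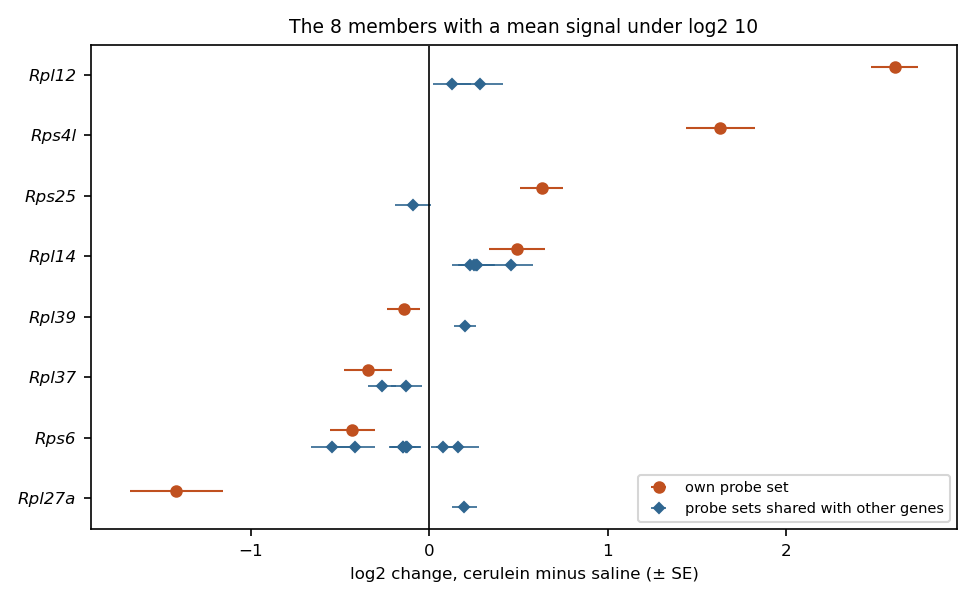
Log2 change after cerulein (horizontal axis, cerulein minus saline, mean of both substrains, bars are SE) of the 8 members with a mean signal under log2 10, by their own probe set (orange circles) and by every kept probe set annotated to the gene together with others (blue diamonds; Rps4l has none). The own probe sets reach from -1.42 for Rpl27a to 1.63 for Rps4l, beyond which lies Rpl12, drawn at a value that is no exact size since its saline arrays all lay under log2 4. The shared ones stay between -0.55 and 0.46.

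Probe sets of 1 gene disagreed elsewhere too. Of 19 members with more than 1 kept probe set, 3 had all of them called higher, 6 had none called and 10 had some called and some not, and no member had calls in both directions. The 10 include Rps9 and Rps24, each with a probe set kept for its cerulein values, as given below. In 2 of the 19 the changes spanned more than 1 log2. Rps9, which acts in decoding accuracy, was at log2 13.22, 13.23 and 13.13 in NHsd cerulein pancreas, against 13.33, 13.19 and 13.45 in NHsd saline pancreas, and at 13.66, 13.40 and 13.43 in J cerulein pancreas, against 13.47, 13.74 and 13.43 in J saline pancreas by its brightest probe set. The groups overlapped, and the change was -0.09 log2 (SE 0.08, adjusted p = 0.336). A probe set with a mean of log2 11.22 rose by 1.21 log2 (SE 0.12). The remaining one lay under log2 4 on all saline arrays (3.06 to 3.75), and against log2 4 its rise was at least 2.37-fold in NHsd mice and at least 2.27-fold in J mice. Rps24, named after its values were seen, changed by 0.13 to 0.31 log2 on 4 probe sets with means above log2 13. Another, with a mean of log2 4.85, was at log2 5.51 to 6.29 on cerulein arrays and 3.07 to 4.72 on saline arrays. Of the saline arrays only J replicates 1 and 2 exceeded log2 4, so it was kept for its cerulein values and no test or size is read from it. Only with that probe set did the changes of Rps24 span more than 1 log2. Counted by probe set, 39 of the 83 kept ones of the members were higher and 4 lower, beside 58.1% and 10.2% of all 14296 kept probe sets. With equal medians these were 5 and 57, beside 26% and 36.4%. The 39 include the dim probe sets of Rpl12, Rps9 and Rps24, which were kept for their cerulein values and so had to differ. The 5 include at least that of Rpl12. Rpl3 and Rpl10, partners of the paralogs Rpl3l and Rpl10l, were measured on such shared probe sets. Rpl3 changed by 0.16 log2 (SE 0.09, adjusted p = 0.115) on 1 with a mean of log2 12.53, while on 1 that lay under log2 4 on all saline arrays the rise was at least 1.46-fold in NHsd mice and at least 1.48-fold in J mice. Both of Rpl10 fell, by 0.51 log2 (SE 0.08) and 0.20 (SE 0.07). Of the 94 kept ones that name a ribosomal protein together with other genes, 37 were higher and 8 lower (2 and 72 with equal medians), to be read against the same shares. The 37 include the dim probe set of Rpl3, which was kept for its cerulein values and so had to differ.

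Within NHsd mice 10 of 42 members were higher and 3 lower, beside 48.7% and 6.6% of all genes, with a median of 0.15 log2. With equal medians 2 were higher and 28 lower, beside 20.2% and 28.8%, with a median of -0.44. Both numbers higher include Rpl12, which passed the filter through its cerulein arrays alone. Rpl35 rose by 0.48 log2 (SE 0.13, adjusted p = 0.00823) and Rpl22 by 0.61 log2 (SE 0.21, adjusted p = 0.0232), and Rps14 changed by -0.37 log2 (SE 0.12, adjusted p = 0.0205). The number higher was 4 without NHsd cerulein replicate 1 or 3, 5 without NHsd saline replicate 2, 6 without NHsd saline replicate 3 and 15 without NHsd cerulein replicate 2. The median was 0.07 without NHsd cerulein replicate 1, 0.09 without replicate 3 and 0.25 without replicate 2, and 0.10 without NHsd saline replicate 2. The number lower was 1 without NHsd saline replicate 1.

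Within J mice 18 were higher and 1 lower, beside 47.8% and 7.61% of all genes, with a median of 0.22 log2. With equal medians 2 were higher and 24 lower, beside 20.9% and 29.4%, with a median of -0.35. Both numbers higher again include Rpl12, which passed the filter through its cerulein arrays alone. Rpl35 rose by 0.70 log2 (SE 0.13, adjusted p = 0.000733), Rpl22 by 0.67 log2 (SE 0.21, adjusted p = 0.0153) and Rps19 by 0.63 log2 (SE 0.16, adjusted p = 0.00632), and Rpl27a was the 1 that fell, at -1.27 log2 (SE 0.36, adjusted p = 0.0105). Once J cerulein replicate 1, whose members' median was the highest, was left out, 11 were higher and 3 lower. Without J saline replicate 3 none was lower.

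The changes in J and NHsd, which rest on separate arrays, were close to each other. Over the 42 members Pearson's r was 0.94 and Spearman's rho 0.86, and 40 had the same sign. For the 34 members at or above log2 10, where Rpl12, Rps4l and Rpl27a no longer stretch the range, r was 0.89, and 32 had the same sign. These are correlations across genes measured on the same arrays, given as descriptions.

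**Figure D5:**
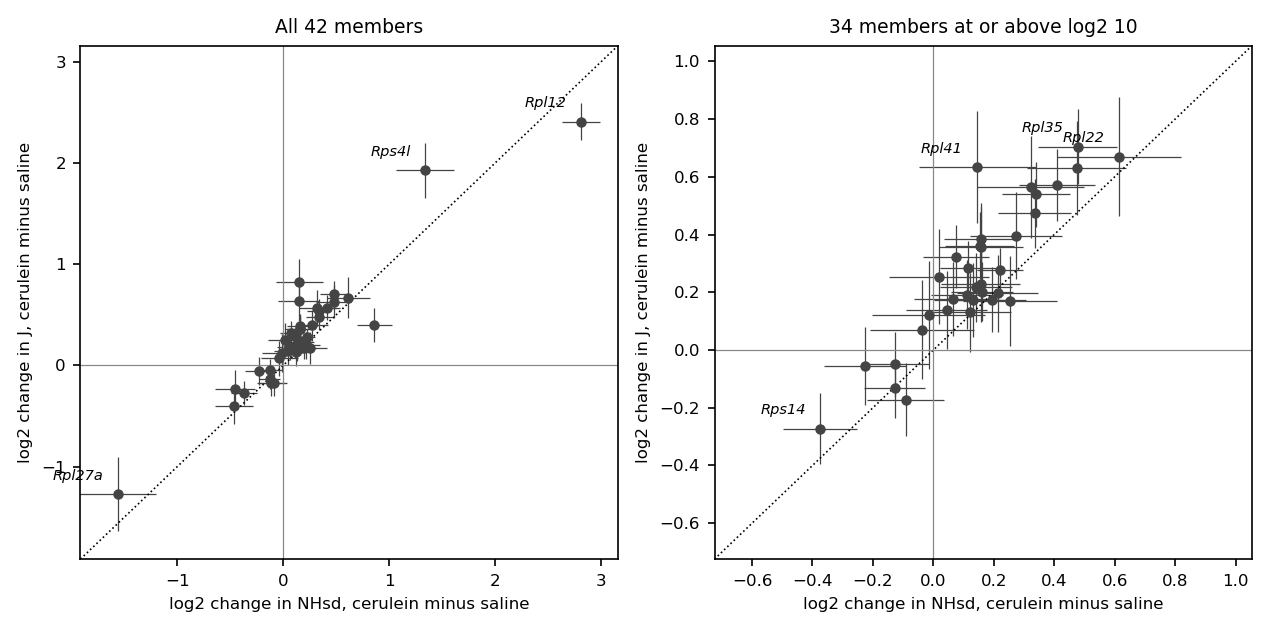
Log2 change after cerulein (cerulein minus saline, deposited values) in J (vertical axis) and NHsd (horizontal axis) for all 42 members (left) and for the 34 at or above log2 10 (right), 1 point per gene with SE bars and the line of equal change dotted. Points run along the line from Rpl27a to Rpl12 (r = 0.94 on the left, 0.89 on the right), and most lie above it.

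The difference of the cerulein effect, J minus NHsd, was called for 0 of 42 members by limma in the deposited values, beside 0.0118% of all genes, and for 0 with equal medians, beside 0%. At an unadjusted p under 0.05 it was 1 member under either scaling, Rpl14, whose difference was 0.68 log2 (SE 0.31, unadjusted p = 0.0495, adjusted p = 0.708). The share of all genes under that unadjusted threshold was not counted, here or in the comparisons of J with NHsd below. The members' median difference was 0.11 log2, 0.003 without J cerulein replicate 1 and 0.02 without NHsd cerulein replicate 2. The median SE of a member's difference was 0.19 log2, so differences of about that size were not detectable with 3 arrays a group.

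Without pancreatitis, J saline against NHsd saline pancreas gave 0 of 42 members called, beside 0.0588% of all genes (0 beside 0.0705% with equal medians). The median difference was 0.08 log2 (0.004 with equal medians, 0.033 without NHsd saline replicate 2), and 1 member, Rps25, had an unadjusted p under 0.05 in the deposited values and 0 with equal medians. After cerulein, J against NHsd gave 0 of 42 called, beside 0.223% (0 beside 0.259% with equal medians). The members' median was 0.21 log2 higher in J cerulein than in NHsd cerulein pancreas (0.14 with equal medians), with 38 of 42 above 0, and the median gene differed by 0.05. At an unadjusted p under 0.05 there were 8 members (3 with equal medians), among them Rps4l at 0.88 log2 (SE 0.27, adjusted p = 0.325). With no share of all genes at this threshold beside them, these numbers are not read as a result about the members. The members' median difference was 0.075 without NHsd cerulein replicate 2 and 0.09 without J cerulein replicate 1, the arrays with the lowest and the highest members' median.

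Other parts of the translation machinery were counted from lists, to be read against the 59.4% of all genes called higher and 10.1% called lower (26.6% and 36.1% with equal medians) and the median gene at 0.49 log2 (-0.10). Ribosome biogenesis factors, which process ribosomal RNA and assemble the subunits, rose in 54 of 68 cases and fell in 1, with a median of 0.77 log2 (29 and 11 with equal medians, median 0.19). Nop58, a core protein of the particles that methylate ribosomal RNA, rose by 2.31 log2 (SE 0.19, adjusted p = 5.32e-07). The nucleolar phosphoprotein gene Nolc1 rose by 2.31 log2 (SE 0.25, adjusted p = 6.17e-06), and Nmd3, the export adaptor of the large subunit, by 2.01 log2 (SE 0.14, adjusted p = 2.06e-07). All 3 were also called higher with equal medians. The median of this list (0.77 log2) and that of the ribosomal proteins (0.20 log2) lay on opposite sides of the median gene (0.49), a contrast that was not tested as a set.

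Of 11 genes of RNA polymerase I and ribosomal RNA transcription 7 rose and 0 fell, with a median of 0.44 log2 (4 and 4 with equal medians), near the shares over all genes. Taf1d, of the factor that loads the polymerase, rose by 2.01 log2 (SE 0.24, adjusted p = 1.22e-05), Myc by 1.21 log2 (SE 0.13, adjusted p = 5.71e-06) and the polymerase subunit gene Twistnb by 1.09 log2 (SE 0.18, adjusted p = 0.000145). Of 46 translation factors 25 rose and 1 fell, with a median of 0.28 log2 (8 and 23 with equal medians), below the median gene. Abce1, which recycles ribosomes, rose by 1.43 log2 (SE 0.21, adjusted p = 7.71e-05), Eif2b3, of the exchange factor of eIF2, by 1.21 log2 (SE 0.12, adjusted p = 2.14e-06), and the termination factor Gspt1 by 1.10 log2 (SE 0.13, adjusted p = 1.36e-05).

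Of 29 genes of the mTOR pathway, which governs TOP mRNAs, 12 rose and 4 fell, with a median of 0.11 log2 (4 and 17 with equal medians), also below the median gene. Those that rose most included inhibitors of mTOR complex 1, Ddit4 by 1.72 log2 (SE 0.19, adjusted p = 5.86e-06) and Sesn3 by 1.52 log2 (SE 0.23, adjusted p = 0.0001), and Rictor, of complex 2, by 1.24 log2 (SE 0.25, adjusted p = 0.000705). Mitochondrial ribosomal proteins are encoded by other genes and lie outside this family. They rose in 46 of 76 cases and fell in 0, with a median of 0.45 log2 (9 and 23 with equal medians, median -0.14). In the deposited values the share that rose was near the 59.4% over all genes, whereas 10.1% of all genes fell. Mrpl16 rose by 1.63 log2 (SE 0.18, adjusted p = 7.66e-06), Mrps18b by 1.5 log2 (SE 0.14, adjusted p = 1.60e-06) and Mrpl13 by 1.25 log2 (SE 0.15, adjusted p = 1.13e-05). Of 3 cytosolic ribosomal proteins with symbols outside the rule, 2 rose, Rpl7l1 by 0.74 log2 (SE 0.16, adjusted p = 0.00142) and Rpl22l1 by 0.31 log2 (SE 0.11, adjusted p = 0.027), and Fau was at 0.22 log2 (SE 0.13, adjusted p = 0.154). With equal medians 0 rose and 2 fell.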

How the data were processed

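Pancreas RNA (100 ng of total RNA per array, labelled as biotin cRNA) was measured on Affymetrix arrays, 12 in all. The deposited values are on a log2 scale, and GCRMA and Partek are named, without version or role, per the submitters' processing notes. How GCRMA was run, and whether the arrays were processed together, is not given in the sources used here. The number of arrays limits the precision.

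Groups came from the sample labels, which call the arrays biological replicates. Probe sets above log2 4 on at least 3 arrays were kept (14296 of 45101), and 1 probe set per gene, that with the highest mean, gave 8505 genes. Group means were fitted over all 12 arrays with limma 3.58.1 in R 4.3.3 (eBayes with an intensity trend), and p-values were adjusted by Benjamini-Hochberg over all 8505 genes, with calls at 0.05. The fit was run on the deposited values, with arrays shifted to the same median of the genes tested, and with arrays shifted to the same median of the 42 members. Control and marker measures had two-sided exact permutation tests over the arrays. The scripts were tested on simulated data. Tables and figures were made with matplotlib 3.10.9, numpy 2.4.6 and pandas 2.3.3 under Python 3.11.15.

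The members and lists were chosen with earlier results of these data known. Members named with values are the 5 that rose most and the 5 that fell most among those called in each comparison, up to 8 in each direction relative to the family, the stalk genes, Rpsa and paralogs with their partners, and of each other list the 3 called genes with the largest change. Any other name was chosen after its values were seen. The fit over all 14296 probe sets was added after the data were seen. Alternatives were other scalings, filters, choices of probe set, moderation, arrays in the fit, the replicate number as a block, and leaving out each array.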

Additional observations from a re-analysis of the deposited data

How the results depend on the processing

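Scaling changed most. With equal array medians the members' median change after cerulein was -0.39 log2 over both substrains, -0.35 in J and -0.44 in NHsd, with 2 members higher in each of these comparisons and 29, 24 and 28 lower. The 2 higher include Rpl12 each time, which was kept for its cerulein values. By its construction this scaling takes the same 0.58 log2 off each gene over both substrains, and 28 of the 42 members changed sign there. Of the named ones these were Rpl14 to -0.092, Rpl41 to -0.19, Rplp0 to -0.14, Rplp2 to -0.092, Rps19 to -0.029, Rps27l to -0.25 and Rpsa to -0.56 log2. In J, Rplp0 was at -0.037, Rplp2 at -0.0059, Rps27l at -0.18 and Rpsa at -0.51, and in NHsd Rpl35 was at -0.11, Rplp0 at -0.25, Rplp2 at -0.18 and Rps19 at -0.11. Quantile normalization gave 7 members lower over both substrains, 6 in J and 6 in NHsd, and put Rpl14 at -0.10, while the medians (0.11, 0.14 and 0.092 log2) and the numbers higher (16, 12 and 7) stayed nearer the deposited ones. The shares over all genes were not counted for quantile normalization or for the other alternatives below. The numbers of members called under them therefore have no share to be read against. Of the 21 named members 15 kept direction and call over both substrains under it, and 2 changed sign. Why these scalings differ was not tested. With plain probe sets alone, which leaves fewer members, the median was 0.44 over both substrains and 0.40 in J, with 11 and 10 members higher, 2 lower over both substrains, 4 above the family and 3 below. Rps9 changed sign over both substrains, in J and in NHsd, to 1.89, 1.78 and 1.99 log2 with plain probe sets. With the mean of its probe sets it was at 1.004, 0.98 and 1.03. Its plain probe set lay under log2 4 on all saline arrays and was kept for its cerulein values, so it had to differ. These values of Rps9 are therefore no exact sizes, and no call is read from them, since the mean also contains that probe set. The 11 and 10 members higher and the 4 above the family with plain probe sets include Rps9 and Rpl12. Rps24 also stands there by a dim probe set kept for its cerulein values. Without the intensity trend 5 were below the family. With no filter on low values 6 were higher and 1 lower in NHsd, and 0 lower in J.

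Leaving out 1 array gave 16 to 27 members higher and 3 to 5 lower over both substrains, 11 to 20 higher and 0 to 3 lower in J, and 4 to 15 higher and 1 to 4 lower in NHsd. It gave 11 to 15 above the family and 7 to 9 below. The members' median stayed between 0.15 and 0.23 over both substrains, 0.16 and 0.26 in J, and 0.07 and 0.25 in NHsd. No member was called in J against NHsd or in the difference of effects under the alternatives run. Whether replicate numbers pair the arrays is not labelled. Deviations of arrays with the same number correlated at -0.16 to 0.34 (mean 0.03, 18 pairs). For arrays with different numbers the correlations were -0.37 to 0.25 (mean -0.01, 36 pairs). These values show no clear pairing and cannot exclude it. With the replicate number as a block 22 members were higher and 4 lower over both substrains, 19 and 3 in J and 10 and 3 in NHsd. Shares over all genes were not counted in this fit or with an array left out.

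Of 1332 values of named members in the 3 comparisons of cerulein with saline under an alternative, 1170 kept their direction and their side of the threshold. Of all 1332, 38 changed sign, 19 of these with equal medians, among them values that were never called. With 3 arrays a group, signals near the floor and probe sets shared with pseudogenes limit what can be said of single members, and the levels of spike-ins, which differ between treatments, leave no scale fixed by the controls.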
